A study of Mus musculus with 8 samples.

Results

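The genes described here are 40 genes of the actin cytoskeleton and of the transcription factors that read its state. They comprise actins, thin-filament proteins, nonmuscle myosin II, crosslinkers, adhesion proteins, the SRF and YAP transcriptional regulators and a few of their target genes. They were chosen by symbol, with earlier results of these data known. Each was found among the 23699 rows of every library table. Expression was measured as FPKM, fragments per kilobase of transcript, scaled to the mapped total of the library, in 8 libraries of 3T3-L1 cells. 3T3-L1 is an established mouse fibroblast line that can be induced to become adipocytes. Both groups were preadipocytes grown in DMEM with newborn calf serum and collected 2 days after they had reached confluence. In 4 libraries the cells had received a pool of 3 Stealth siRNAs against Fto (siFto), and in the other 4 a pool of 3 nontargeted Stealth siRNAs (siCtr). Transfection used 40 nM siRNA in Lipofectamine for 24 hours before confluence. Fto encodes a dioxygenase that removes methyl groups from RNA. The material is a single clonal line, the effects of the individual siRNAs in a pool cannot be told apart, and the labels do not say whether replicates were separate cultures, and the p-values therefore cover only the spread among these libraries, which may be technical. All SDs are over n = 4.

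Actin exists as free monomers and as filaments, and cells shift between these states as they spread, adhere and contract. MRTF-A and MRTF-B, encoded by Mkl1 and Mkl2, bind free actin monomers in the cytoplasm and, when released, enter the nucleus and activate SRF, a factor that binds the CArG box in the promoters of many actin and contractile genes. YAP and its paralog TAZ (Wwtr1) are the coactivators restrained by the Hippo kinases, and they work mainly through TEAD factors, which bind the MCAT element. In preadipocytes a spread, contractile shape with high MRTF and YAP activity is known to oppose adipocyte differentiation.

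Promoter sequences are shown for members in which the letters of these elements were found. Such a match does not by itself place a gene in either pathway. RefSeq promoters (GRCm38.p6, 250 bases before to 50 after the start site) were at hand for 36 of the 40 genes, the others being Actg2, Actb, Tagln and Ctgf. The CArG box was searched as CC, then 6 letters each A or T, then GG, with no mismatch allowed. A box that departs from this pattern was not counted, so a promoter without a match may still hold one. The exact box was found in 6 of the 36 promoters (16.7%), those of Actg1, Cnn2, Myl6, Myl9, Vcl and Srf. Among all 27025 genes of the promoter table, 488 (1.81%) held such a box. The box is in capitals in the following windows, which are written 5′ to 3′ on the strand of the gene. They lie at chr11:120348556-120348605 (minus strand, Actg1), chr10:79988524-79988573 (plus, Cnn2), chr10:128493030-128493079 (minus, Myl6), chr2:156775283-156775332 (plus, Myl9) and chr14:20929151-20929200 (plus, Vcl).
Actg1: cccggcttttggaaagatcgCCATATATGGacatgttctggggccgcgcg
Cnn2: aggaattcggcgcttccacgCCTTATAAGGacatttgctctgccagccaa
Myl6: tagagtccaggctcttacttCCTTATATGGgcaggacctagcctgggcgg
Myl9: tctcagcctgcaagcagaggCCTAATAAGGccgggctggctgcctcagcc
Vcl: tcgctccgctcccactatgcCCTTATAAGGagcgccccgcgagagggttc

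Srf, the gene of the factor itself, is shown over its whole promoter because it was the member with 2 CArG boxes, which begin at -82 and -62 relative to the start site. The sequence covers chr17:46556113-46556412 on the minus strand of GRCm38.p6, with both boxes in capitals.
Srf: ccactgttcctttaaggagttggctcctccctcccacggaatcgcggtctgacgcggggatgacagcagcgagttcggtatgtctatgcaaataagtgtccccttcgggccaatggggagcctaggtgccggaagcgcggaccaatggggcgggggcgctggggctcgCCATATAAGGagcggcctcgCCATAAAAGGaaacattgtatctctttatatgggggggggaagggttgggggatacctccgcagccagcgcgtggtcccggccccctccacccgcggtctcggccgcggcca

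The MCAT element was searched as GGAATG and CATTCC, which covers both strands. It can overlap a CArG box by a closing GG or an opening CC, but Vcl, the only member promoter with both, held them apart, at -143 and -227. It was present in 18 of 36 member promoters (50%) and in 4481 of 27025 in the table (16.6%). Of the YAP target and angiomotin genes described below, Cyr61, Ankrd1 and Amotl2 held it, and their windows are shown with the element in capitals. They lie at chr3:145650063-145650108 (minus strand, Cyr61), chr19:36120029-36120074 and chr19:36119942-36119987 (minus, Ankrd1) and chr9:102717719-102717764 (plus, Amotl2). A match says only that these letters are present in this stretch.
Cyr61: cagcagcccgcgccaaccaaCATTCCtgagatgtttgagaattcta
Ankrd1 at -210: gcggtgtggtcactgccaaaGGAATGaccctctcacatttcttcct
Ankrd1 at -123: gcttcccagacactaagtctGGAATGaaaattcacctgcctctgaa
Amotl2: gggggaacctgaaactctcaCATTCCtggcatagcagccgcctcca

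Fto mRNA, which checks the labels, was 55.3 ± 0.647 FPKM with control siRNA and 12.1 ± 1.29 FPKM with Fto siRNA, 78.1% less, and each siFto library lay below each control (exact two-sided permutation p = 0.0286, the smallest that 70 arrangements give). The libraries listed 11351 to 11397 genes at 1 FPKM or more. For such genes the upper bound of the Cufflinks interval lay a median of 6.59 to 7.55% above the value. That interval belongs to a single library and does not cover the spread between libraries. Fibroblast markers (Pdgfra, Pdgfrb, Col1a1, Col1a2, Vim and Thy1) summed to 7397 to 7667 FPKM in controls and 7976 to 8806 with Fto siRNA, and 5 of the 6 passed the test, Thy1, Col1a1 and Col1a2 higher and Pdgfra and Pdgfrb lower. Of 7 mature adipocyte markers 3 reached a mean of 1 FPKM, and the list summed to 50.8 to 81.8 FPKM in controls and 53.1 to 65.3 with Fto siRNA. The smooth muscle markers Myh11, Myocd, Synpo2, Smtn and Des summed to 21.7 to 23.5 FPKM in controls and 23.3 to 25.4 with Fto siRNA. Most of this sum was Smtn, at 20.6 and 22.2 FPKM on average (limma adjusted p = 0.0783), followed by Des at 1.92 and 1.81 FPKM. Myh11 was at 0.137 and 0.165 FPKM, and Myocd and Synpo2 were lower still. Of the skeletal and cardiac muscle markers, Actc1, Ckm and Myod1 were at 0 in all 8 libraries, and Myog and Myh3 were near 0. Tnnt2 averaged 1.12 FPKM in controls and 0.929 with Fto siRNA, and Acta1 0.395 and 0.362. The preadipocyte markers Dlk1, Pparg, Cebpb and Zfp423 summed to 935 to 1110 FPKM in controls and 932 to 1044 with Fto siRNA, and none of them passed the test. Control replicate 3 was the highest control for 17 of 39 members, whose annotated mRNAs had a median length of 2035 bases. It was the lowest for 11, whose median was 7791 bases. Control replicates 1 and 4 were the lowest for 12 and 11 members. In control replicates 1, 2 and 4 the order of lengths was the opposite. Their medians were 4328, 4544.5 and 3877 bases where highest, and 1882.5, 2020 and 2890 where lowest. These counts were not made over all genes.

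Among the 40 genes, 12 were lower and 3 were higher with Fto siRNA, by modest amounts. The lower genes were Actb, Amotl2, Ankrd1, Cnn2, Lmod1, Myl12a, Myl12b, Srf, Tpm1, Vcl, Yap1 and Zyx, with means 12.5 to 22.8% below those of the controls. The higher genes were Tagln2, Mkl1 and Actn1, with means 18.2, 11.6 and 9.24% above. Groups were compared with limma on log2(FPKM + 0.5), two-sided, over the 11398 genes whose FPKM averaged 1 or more across the libraries, and a gene was called at a Benjamini-Hochberg adjusted p below 0.05. Of the 40 genes 39 passed the filter, the exception being Cnn1. The called members made up 30.8% of the tested members in the lower direction, against 12.3% of all tested genes, and 7.69% in the higher direction, against 6.97%. Because the members were chosen with earlier results of these data known, the contrast of these shares is a description only. The groups did not overlap for 13 members in the lower direction, against 15.1% of all genes, and for 2 in the higher direction, against 9.08%. These 13 were the called lower genes other than Ankrd1, together with Cald1 and Myl6, and they were 33.3% of the tested members. The median log2 fold change was -0.06 over the tested members and -0.02 over all tested genes, and 26 of the 39 (66.7%) lay below 0, as did 55.3% of all tested genes. In these bulk samples fewer cells expressing a gene and less of its RNA per cell cannot be told apart.

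The members are abundant transcripts, with a median of the mean FPKM of 79.7 against 15.1 for all tested genes. Among the 4595 tested genes that averaged 20 FPKM or more, a limit chosen after the values were seen, 13.1% were called lower and 9.31% higher, and of the 32 members in that range 10 (31.2%) were lower and 2 (6.25%) higher. Together the 40 genes held 1.59 to 1.61% of the summed FPKM of a control library and 1.44 to 1.5% of a siFto library, so these ranges did not overlap. This share follows the most abundant members, Actb and Tpm1, which were called lower, and Actg1, which did not pass. It is therefore no measure of a shift across all 40 genes. The split of calls over all genes depended on scaling. As deposited, 794 genes were higher and 1401 lower, 36.2% of calls in the higher direction, while median-ratio scaling gave 1086 and 1218 (47.1%) and quantile normalization 1086 and 1207 (47.4%). Under both of these scalings 3 members were higher and 11 lower, all of them among the calls made on the deposited values.

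**Figure D1:**
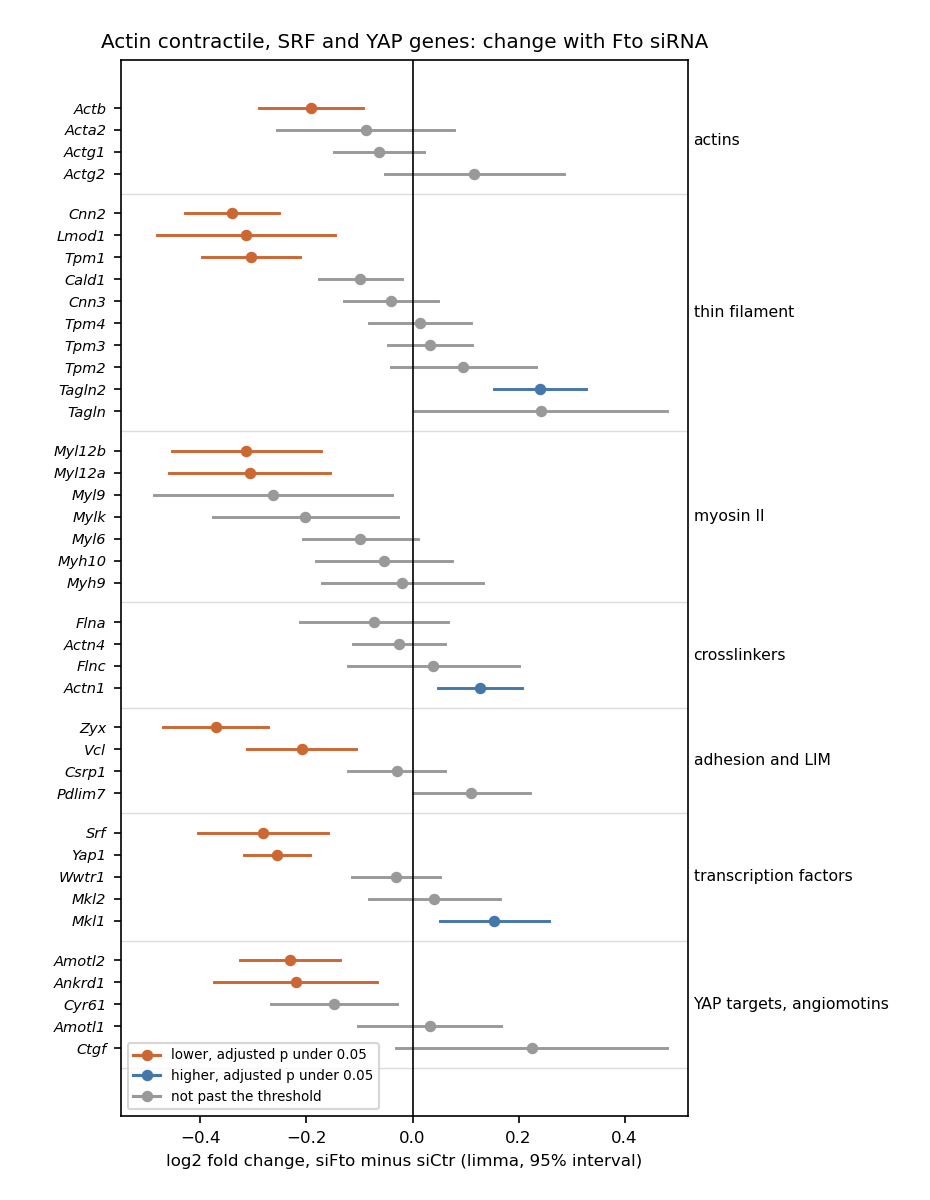
Log2 fold change (siFto minus siCtr, on log2(FPKM + 0.5)) of each of the 39 tested genes, ordered by role, with the 95% interval from limma as a bar. Orange marks the 12 genes called lower and blue the 3 called higher, and the values run from -0.37 for Zyx to 0.24 for Tagln and Tagln2.

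Among the transcription factors and coactivators, Yap1 and Srf fell, Mkl1 rose, and Mkl2 and Wwtr1 did not pass the test. Yap1 (mm9 chr9:7932001-8004596) encodes the YAP coactivator. Its mRNA measured 61.2, 59.6, 59.7 and 59.3 FPKM in the 4 controls and 50.1, 50.5, 49.9 and 50.2 FPKM in the 4 siFto libraries. Each siFto library was below each control, and the values within a group lay close together. The mean fell from 59.9 ± 0.869 to 50.2 ± 0.245 FPKM, a log2 fold change of -0.25 with SE 0.028 (limma adjusted p = 0.000314). Wwtr1, which encodes TAZ, measured 26.7, 27.2, 27.1 and 26.5 FPKM in controls and 25.4, 27.9, 26.5 and 25.5 FPKM with Fto siRNA, so the groups overlapped. Its log2 fold change was -0.03, with a 95% interval from -0.11 to 0.05 (limma adjusted p = 0.608). As a share of the sum of the 2 coactivator mRNAs, Yap1 held 68.6 to 69.7% in controls and 64.4 to 66.4% with Fto siRNA.

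Srf (mm9 chr17:46683788-46693111) encodes the CArG-binding factor, and its own promoter carries the 2 boxes shown above. Its level was 30.8, 29.3, 27.3 and 30.4 FPKM in controls and 26.0, 22.3, 25.0 and 23.2 FPKM with Fto siRNA, with no overlap between the groups. The mean fell by 18.0%, from 29.4 ± 1.57 to 24.1 ± 1.65 FPKM (log2 fold change -0.28, SE 0.0551, limma adjusted p = 0.00651). Its coactivator MRTF-A went the other way at the mRNA level. Mkl1 measured 16.1, 18.1, 16.4 and 16.5 FPKM in controls and 19.3, 19.2, 18.7 and 17.8 FPKM with Fto siRNA. Control replicate 2 lay above siFto replicate 4, so the groups overlapped at that pair. The mean rose from 16.8 ± 0.920 to 18.7 ± 0.699 FPKM (log2 fold change 0.15, SE 0.0464, limma adjusted p = 0.0415), a call that was lost in 9 of 17 other settings, where the adjusted p reached 0.101. Mkl2, which encodes MRTF-B, was 9.59 ± 0.655 FPKM in controls and 9.87 ± 0.437 with Fto siRNA (log2 fold change 0.04, 95% interval -0.08 to 0.16, limma adjusted p = 0.653). The locus of Mkl1 overlaps the end of Sgsm3 by only 10 bases, and Sgsm3 stood at 5.76 FPKM in controls and 5.12 with Fto siRNA. Reads of that short stretch cannot be told apart, the strandedness being not given in the sources used here.

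Of the YAP target genes and angiomotins, Amotl2 fell and Ankrd1 passed the threshold narrowly, while Ctgf, Cyr61 and Amotl1 did not pass. Angiomotins are junction-associated scaffold proteins that bind YAP, and Amotl2 is also a known YAP target. Amotl2 (mm9 chr9:102620134-102635747) measured 83.2, 76.5, 76.5 and 76.1 FPKM in controls and 70.4, 63.8, 65.2 and 66.5 FPKM with Fto siRNA. All 4 siFto libraries were below all controls. The mean fell by 14.9% (log2 fold change -0.23, SE 0.0423, limma adjusted p = 0.00479). Its paralog Amotl1 stood at 24.6 ± 2.07 FPKM in controls and 25.1 ± 1.16 FPKM with Fto siRNA (log2 fold change 0.03, limma adjusted p = 0.753).

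Ctgf, Cyr61 and Ankrd1 are the target genes most often used to read YAP activity. Ctgf (CCN2), a secreted matricellular protein, was close to the filter at 1.14, 1.13, 1.26 and 1.47 FPKM in controls and 1.44, 1.96, 1.46 and 1.35 FPKM with Fto siRNA. The groups overlapped, and the Cufflinks interval of a single value reached a median of 25.4% above it. Its log2 fold change was 0.22 with a 95% interval from -0.03 to 0.48 (limma adjusted p = 0.206). Cyr61 (CCN1), a related secreted protein, was far more abundant, at 85.8, 79.6, 80.4 and 89.2 FPKM in controls and 72.7, 78.7, 80.8 and 70.1 FPKM with Fto siRNA. Its siFto replicate 3 lay within the range of the controls, and the log2 fold change of -0.15 had an interval from -0.27 to -0.03 (limma adjusted p = 0.0816). Intervals of single genes are not adjusted for the number of genes, so an interval that leaves out 0 can accompany an adjusted p above the threshold. Ankrd1, a stress-responsive ankyrin repeat protein, measured 4.66, 4.52, 5.33 and 5.29 FPKM in controls and 4.08, 4.52, 3.90 and 4.19 FPKM with Fto siRNA. The second replicates of both groups were nearly equal, and the log2 fold change was -0.22 (SE 0.0692, limma adjusted p = 0.0498). Ankrd1 was called in 6 of the 17 settings in which it was tested, the one reported here included, and its adjusted p reached 0.126 without control replicate 4.

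**Figure D2:**
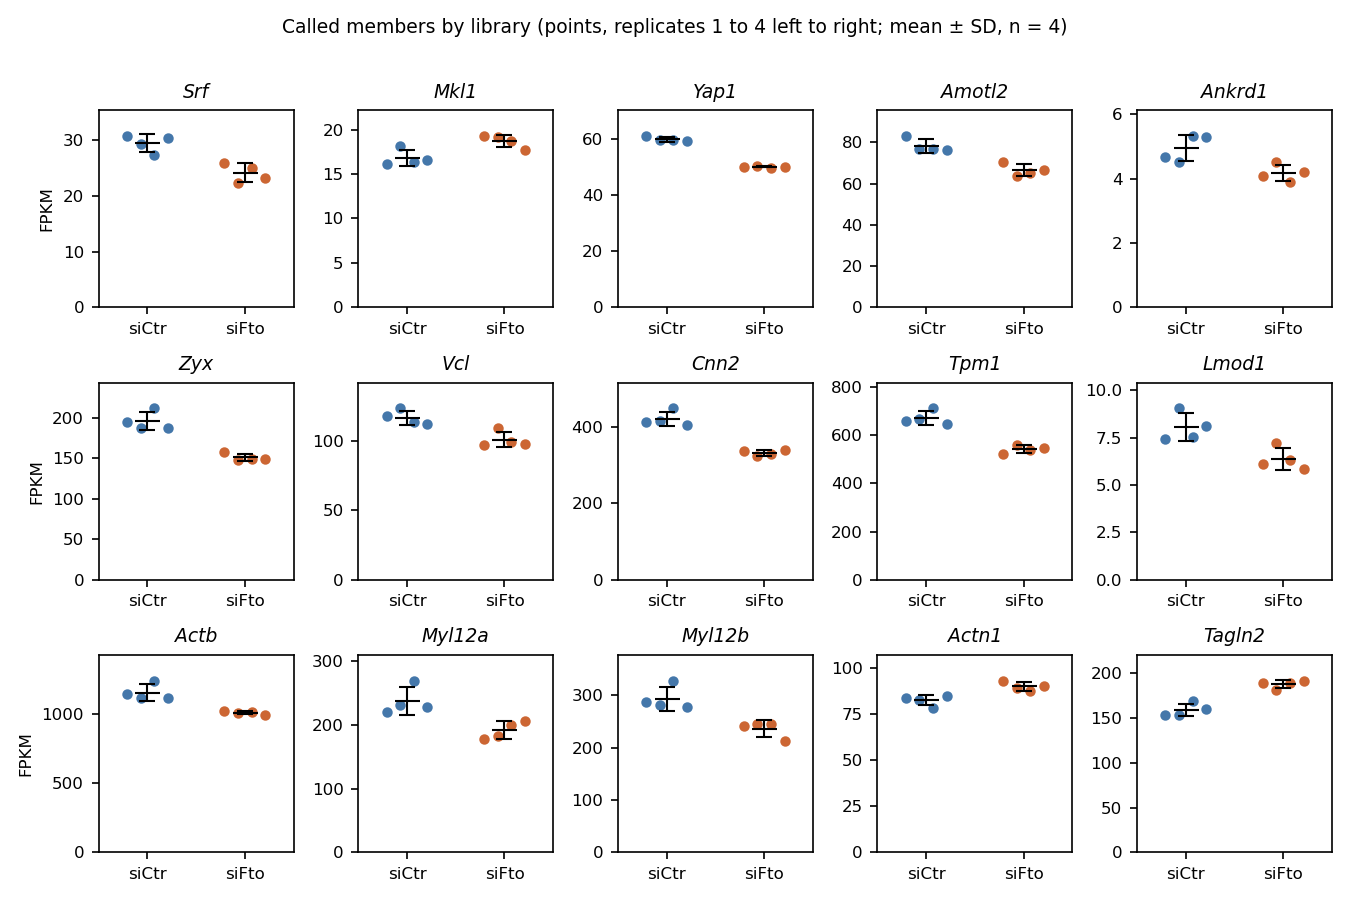
FPKM of each of the 15 called genes in every library, with 4 control points and 4 siFto points per panel and the mean ± SD beside them. Mkl1 and Ankrd1 are the panels in which the groups overlap, and Yap1 shows the narrowest spread within its siFto group, 49.9 to 50.5 FPKM.

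Of the 4 actins, Actb fell and the others did not pass the test. Actb and Actg1 encode the cytoplasmic beta and gamma actins that build stress fibres and the cell cortex, while Acta2 and Actg2 encode the smooth muscle alpha and gamma actins. Actb (mm9 chr5:143664795-143668403) was the most abundant member, at 1147, 1121, 1242 and 1118 FPKM in controls and 1025, 1008, 1018 and 998.1 FPKM with Fto siRNA. No siFto library reached the lowest control. The mean fell from 1157 ± 58.4 to 1012 ± 11.6 FPKM, by 12.5% (log2 fold change -0.19, SE 0.0442, limma adjusted p = 0.0139). With no filter on low values, which raises the number of genes tested to 17807, the adjusted p of Actb was 0.0572. Actg1 measured 818.0, 800.8, 857.0 and 835.0 FPKM in controls and 814.5, 779.7, 780.4 and 793.5 FPKM with Fto siRNA, with siFto replicate 1 inside the control range. Its log2 fold change was -0.06 (95% interval -0.15 to 0.02, limma adjusted p = 0.280). The share of Actb in the summed FPKM of the 4 actins ranged from 46.6 to 48.3% in controls and from 44.1 to 46.5% with Fto siRNA. The coding sequences of Actb and Actg1 are 88.7% identical, and those of Acta2 and Actg2 84.2%, so the split of fragments between them is uncertain.

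The thin-filament genes moved in both directions, with Cnn2, Tpm1 and Lmod1 lower and Tagln2 higher among the 10 of 11 that were tested. Cnn2 (mm9 chr10:79451345-79458145) encodes a calponin that is also found outside smooth muscle, an actin-binding protein that stabilises filaments. It measured 413.4, 416.8, 449.3 and 405.5 FPKM in controls and 336.5, 323.4, 330.5 and 339.4 FPKM with Fto siRNA. The groups were well apart. The mean fell by 21.1%, from 421 ± 19.3 to 332 ± 7.05 FPKM (log2 fold change -0.34, SE 0.0400, limma adjusted p = 0.000449). Cnn3, the acidic calponin, stood at 346 ± 15.1 and 336 ± 8.82 FPKM (log2 fold change -0.04, 95% interval -0.13 to 0.05, limma adjusted p = 0.521). Cnn1, the calponin of smooth muscle, was nearly undetected, at 0, 0.0465, 0.111 and 0.0734 FPKM in controls and 0.0521, 0.135, 0.120 and 0.104 FPKM with Fto siRNA. Cnn2 made up 54.3 to 55.2% of the summed calponin FPKM in controls and 49.0 to 50.7% with Fto siRNA.

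Tropomyosins are coiled-coil proteins that lie along the actin filament and set which myosins and other partners bind it. Tpm1 (mm9 chr9:66870400-66897020) measured 660.4, 667.6, 711.5 and 644.9 FPKM in controls and 523.7, 561.1, 540.3 and 547.3 FPKM with Fto siRNA. Each siFto value was below each control value, and the mean fell from 671 ± 28.6 to 543 ± 15.6 FPKM (log2 fold change -0.30, SE 0.0419, limma adjusted p = 0.000976). The other tropomyosins did not pass the test. Tpm4 held 384 ± 15.5 and 388 ± 16.2 FPKM (log2 fold change 0.01, 95% interval -0.08 to 0.11), Tpm3 141 ± 5.36 and 144 ± 2.78 FPKM (0.03, interval -0.05 to 0.11), and Tpm2 33.1 ± 2.88 and 35.3 ± 2.07 FPKM (0.10, interval -0.04 to 0.23). For Tpm2, control replicate 3 held 37.4 FPKM against 31.4 to 31.8 in the other controls, and without that library its log2 fold change was 0.16 (limma adjusted p = 0.0396). The makeup of the tropomyosin family shifted in every library. Tpm1 accounted for 54.1 to 55.1% of the family's summed FPKM in controls and 48.4 to 49.2% with Fto siRNA, and Tpm4 for 31.1 to 31.4% and 34.3 to 35.5%. The family as a whole summed to 1229 ± 50.9 FPKM in controls and 1111 ± 31.4 FPKM with Fto siRNA. FPKM of a gene do not separate its splice forms, which in tropomyosins differ between cell types.

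**Figure D3:**
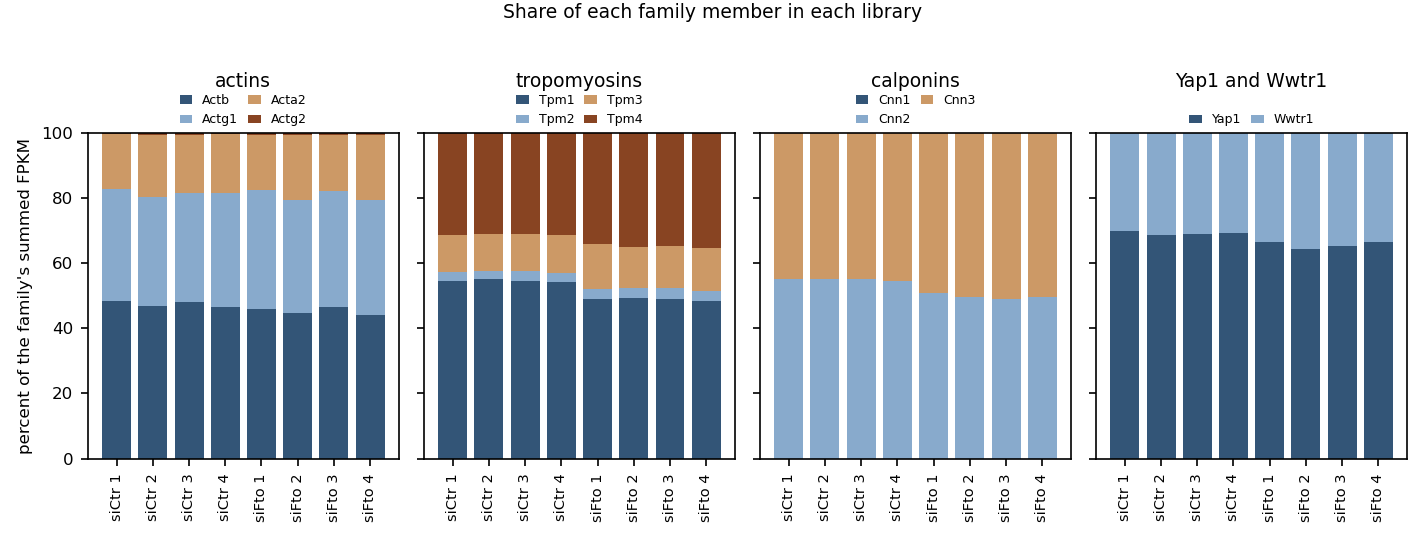
Share of each member in the summed FPKM of its family, in percent, for every library, stacked to 100. In the tropomyosins the Tpm1 share is 54.1 to 55.1% in the 4 controls and 48.4 to 49.2% in the 4 siFto libraries.

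Lmod1, a leiomodin that nucleates actin filaments in smooth muscle, was expressed at a low level, with 7.45, 9.05, 7.56 and 8.13 FPKM in controls and 6.12, 7.20, 6.32 and 5.86 FPKM with Fto siRNA. The highest siFto library was just under the lowest control. The mean fell by 20.8% (log2 fold change -0.31, SE 0.0753, limma adjusted p = 0.0164). Cald1, which encodes caldesmon, an actin- and myosin-binding inhibitor of contraction, measured 372.7, 373.5, 355.9 and 359.0 FPKM in controls and 329.9, 349.7, 340.4 and 344.9 FPKM with Fto siRNA. Its groups did not overlap either, but the log2 fold change of -0.10 missed the threshold (limma adjusted p = 0.0756), and it passed when control replicate 3 was left out (-0.11, adjusted p = 0.0428).

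Tagln2, a broadly expressed transgelin that bundles actin, rose. It measured 153.2, 153.5, 168.6 and 159.5 FPKM in controls and 189.3, 180.6, 189.0 and 191.3 FPKM with Fto siRNA, with every siFto library above every control. The mean rose by 18.2%, from 159 ± 7.21 to 188 ± 4.76 FPKM (log2 fold change 0.24, SE 0.0393, limma adjusted p = 0.00258; mm9 chr1:174430377-174437506). Tagln, the smooth muscle transgelin SM22, had the same log2 fold change of 0.24 with a wider spread, at 20.1, 25.1, 24.4 and 24.1 FPKM in controls and 26.1, 31.4, 22.6 and 31.8 FPKM with Fto siRNA. Its siFto replicate 3 lay inside the control range and the gene did not pass (limma adjusted p = 0.148). Without that library the log2 fold change was 0.34 (adjusted p = 0.0342). The locus of Tagln overlaps that of Pcsk7 by 95 bases, and Pcsk7 stood at 10.0 and 10.1 FPKM in the 2 groups.

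Of the members typical of smooth muscle, Acta2, Actg2, Tagln and Myl9 did not pass the test, Lmod1 fell as described above and Cnn1 was too low to be tested. Acta2 measured 398.2, 460.5, 463.6 and 431.9 FPKM in controls and 376.9, 448.1, 375.2 and 453.1 FPKM with Fto siRNA (log2 fold change -0.09, 95% interval -0.26 to 0.08, limma adjusted p = 0.457). Actg2 measured 13.7, 16.0, 15.9 and 14.2 FPKM in controls and 16.6, 17.4, 13.9 and 17.2 FPKM with Fto siRNA (0.12, interval -0.05 to 0.29, adjusted p = 0.323). In Acta2, Actg2, Tagln and Myl9 alike, siFto replicates 2 and 4 lay above siFto replicates 1 and 3, a pattern seen after the values were known. Lmod1 and Cnn1 did not show this order, and it was not limited to smooth muscle-type genes. It held for 11 of the 39 tested members (28.2%), among them Tpm1, Tpm4, Cald1 and Yap1, and for 16.5% of all tested genes. Among the controls, replicate 1 was the lowest library for Acta2, Actg2, Tagln and Myl9. Acta2 was expressed at a level per length comparable to that of Cnn2. Of the smooth muscle markers, Myh11, Myocd and Synpo2 were near 0, Des was low, and Smtn stood at 20.6 FPKM in controls and 22.2 FPKM with Fto siRNA.

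**Figure D4:**
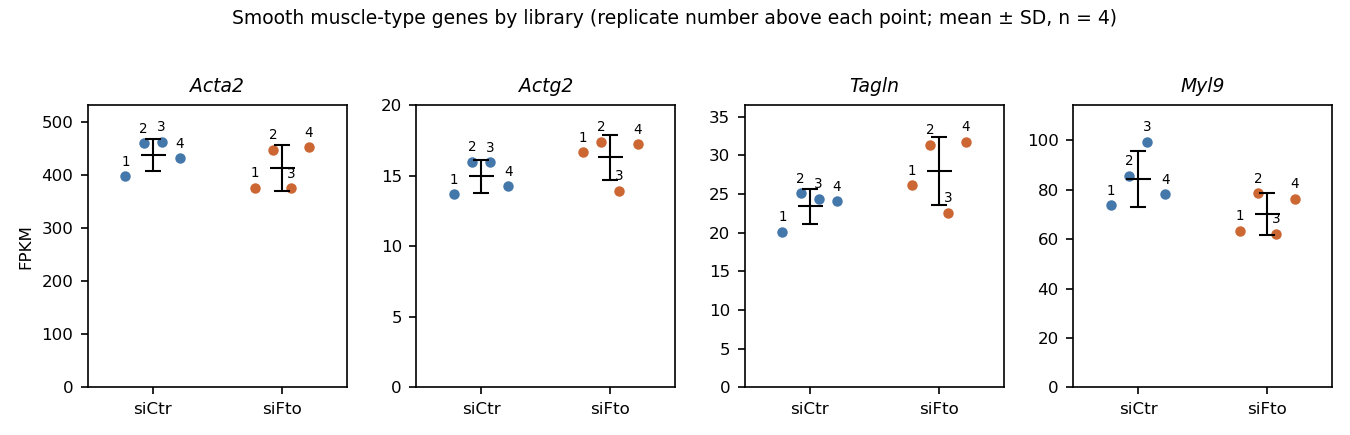
FPKM of Acta2, Actg2, Tagln and Myl9 in each library, with the replicate number above each point and the mean ± SD beside the points. For Acta2 the siFto libraries form an upper pair, replicates 2 and 4 at 448.1 and 453.1 FPKM, and a lower pair, replicates 1 and 3 at 376.9 and 375.2 FPKM.

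Nonmuscle myosin II is a motor of paired heavy chains, each carrying an essential and a regulatory light chain, and phosphorylation of the regulatory chain switches contraction on. All 7 tested myosin II genes had log2 fold changes below 0, where 55.3% of all tested genes lay, with a median of -0.20, and 2 of them, the regulatory light chains Myl12a and Myl12b, passed the test. Myl12a (mm9 chr17:71343133-71351873) measured 221.2, 231.9, 269.5 and 228.3 FPKM in controls and 177.5, 183.1, 200.2 and 206.7 FPKM with Fto siRNA. Myl12b, its neighbour at mm9 chr17:71323303-71339856, measured 286.6, 282.2, 327.6 and 277.8 FPKM in controls and 242.2, 245.5, 244.4 and 212.3 FPKM with Fto siRNA. Neither gene's groups overlapped. The mean of Myl12a fell by 19.3% (log2 fold change -0.31, SE 0.0683, limma adjusted p = 0.0116) and that of Myl12b by 19.6% (-0.31, SE 0.0632, adjusted p = 0.00761). Their coding sequences are 96.5% identical, so how fragments were divided between them is uncertain. In siFto replicate 4 Myl12a was at its highest and Myl12b at its lowest within the group. The 3 regulatory light chain genes together, with Myl9, summed to 581.5 to 696.6 FPKM in controls and 483.1 to 507.1 FPKM with Fto siRNA.

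Myl9, the regulatory light chain typical of smooth muscle, measured 73.8, 85.7, 99.5 and 78.3 FPKM in controls and 63.4, 78.5, 62.2 and 76.4 FPKM with Fto siRNA. The groups overlapped, and the log2 fold change was -0.26 (95% interval -0.49 to -0.04, limma adjusted p = 0.0979). Myl6, the essential light chain, measured 398.0, 399.8, 456.0 and 398.2 FPKM in controls and 388.7, 374.2, 382.5 and 394.8 FPKM with Fto siRNA. Its groups did not overlap, yet the log2 fold change of -0.10 did not pass (limma adjusted p = 0.192), and without the high control replicate 3 it was -0.05. Mylk, the myosin light chain kinase that phosphorylates these chains, was low, at 5.0 ± 0.240 and 4.30 ± 0.502 FPKM (log2 fold change -0.20, limma adjusted p = 0.1002). The transcripts E130310I04Rik and 1700119H24Rik, at means under 0.3 FPKM, overlap its locus.

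The heavy chains did not pass. Myh9, the main nonmuscle heavy chain, measured 164.1, 167.7, 136.4 and 169.2 FPKM in controls and 166.8, 156.7, 156.8 and 146.7 FPKM with Fto siRNA (log2 fold change -0.02, 95% interval -0.17 to 0.13, limma adjusted p = 0.874). Its lowest value of all was that of control replicate 3, and without that library the log2 fold change was -0.09 (adjusted p = 0.154). Myh10 was 33.7 ± 2.72 and 32.4 ± 1.31 FPKM (log2 fold change -0.05, limma adjusted p = 0.568). The ranges of the family shares overlapped, with Myh9 holding 82.1 to 83.1% of their sum in controls and 82.5 to 83.2% with Fto siRNA.

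Among the crosslinkers, Actn1 rose slightly and the rest did not pass. Alpha-actinins and filamins join actin filaments into bundles and networks, and alpha-actinin also anchors stress fibres at adhesions. Actn1 measured 84.0, 82.8, 78.6 and 84.8 FPKM in controls and 93.3, 89.5, 87.5 and 90.5 FPKM with Fto siRNA, with no overlap. The mean rose by 9.24% (log2 fold change 0.13, SE 0.0354, limma adjusted p = 0.0311), and the call was lost in 5 of 17 other settings, with an adjusted p of up to 0.0812. Its paralog Actn4 was 96.2 ± 3.27 and 94.6 ± 3.75 FPKM (log2 fold change -0.02, 95% interval -0.11 to 0.06, limma adjusted p = 0.707). Actn1 held 45.9 to 47.0% of the alpha-actinin sum in controls and 48.4 to 49.3% with Fto siRNA. Flna, the main filamin, was 254 ± 23.1 and 240 ± 9.34 FPKM (log2 fold change -0.07, limma adjusted p = 0.459), and without control replicate 3, its lowest library, the log2 fold change was -0.14 (adjusted p = 0.0321). Flnc, the filamin of striated muscle, was 49.7 ± 5.08 and 50.9 ± 3.16 FPKM (log2 fold change 0.04, limma adjusted p = 0.753).

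Zyx and Vcl, which couple stress fibres to focal adhesions, fell, while the LIM proteins Pdlim7 and Csrp1 did not pass. Zyx (mm9 chr6:42299827-42308394) encodes zyxin, a LIM protein recruited to strained fibres. It measured 195.6, 188.2, 212.0 and 188.2 FPKM in controls and 158.0, 147.9, 149.2 and 149.8 FPKM with Fto siRNA. The groups were clearly separated, and the mean fell from 196 ± 11.2 to 151 ± 4.60 FPKM, by 22.8%, the largest percentage among the called members (log2 fold change -0.37, SE 0.0443, limma adjusted p = 0.000473). Vcl (mm9 chr14:21748655-21852895) encodes vinculin, which binds talin and actin. Its level was 117.3, 123.2, 113.1 and 112.1 FPKM in controls and 97.0, 109.0, 99.1 and 97.7 FPKM with Fto siRNA, again with no overlap. The mean fell by 13.5% (log2 fold change -0.21, SE 0.0464, limma adjusted p = 0.0116). Pdlim7 was 32.7 ± 1.71 and 35.3 ± 1.94 FPKM (log2 fold change 0.11, limma adjusted p = 0.152) and Csrp1 64.2 ± 3.38 and 62.8 ± 1.27 FPKM (-0.03, adjusted p = 0.658).

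Set beside the promoters, the exact CArG box was present in 3 of the 11 lower members with a listed promoter (Cnn2, Vcl and Srf). It was present in 0 of the 3 higher ones and in 3 of 21 that did not pass (Actg1, Myl6 and Myl9). The MCAT element was present in 7 of the 11 lower members (Tpm1, Lmod1, Myl12a, Vcl, Yap1, Ankrd1 and Amotl2), in 1 of 3 higher (Tagln2) and in 10 of 21 others. These counts are a description of 35 tested genes and carry no test.

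The related 3′ UTR words GACCTTA and ACCTTAA, which were picked earlier from these same data, were present in 326 of 1236 lower genes (26.4%), in 59 of 710 higher genes (8.31%) and in 908 of 7891 others (11.5%). Because of that choice, the difference between these shares is no independent result. Whatever the call, 3 of 39 tested members (7.69%) held such a word, against 1293 of 9837 searched genes (13.1%). Among the lower members Yap1 alone, 1 of 12, held such a word, at base 2293 of its annotated 3′ UTR of 2498 bases. None of the 3 higher members held one, and among the 24 others Mkl2 and Mylk did, Mylk at 2 places, bases 215 and 1459 of its 3′ UTR. The sites are shown with the word in capitals, from the GENCODE M21 transcripts on GRCm38.
Yap1: tgctctctGACCTTAtcaaaccc
Mylk at 215: tagatagcACCTTAAacactagt
Mylk at 1459: tacaacccGACCTTAAactacttc
Mkl2: tagagagaACCTTAAtcatttct

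The wider pathways were described from 5 further lists, also chosen with earlier results of these data known. Beside their shares of calls stand the 12.3% of all tested genes that were lower and the 6.97% that were higher. These contrasts are a description only. Of 16 tested SRF and MRTF targets outside the 40 genes, 4 were lower (Fhl2, Itga1, Lima1 and Nexn) and 1 higher (Pdlim5), which is 25% and 6.25% of the list, with a median log2 fold change of -0.00. The count of lower genes ran from 2 without control replicate 1 to 6 without control replicate 3, and that of higher genes was 2 without siFto replicate 2. Fhl2, a LIM cofactor, fell from 81.0 ± 3.04 to 70.2 ± 3.48 FPKM (-0.21, limma adjusted p = 0.00892), and Nexn, an actin-binding protein, from 4.89 ± 0.518 to 3.73 ± 0.436 FPKM (-0.35, adjusted p = 0.0239). The call of Nexn was lost without control replicate 1, siFto replicate 1 or siFto replicate 3 (limma adjusted p up to 0.0628). Itga1, a collagen-binding integrin chain, fell from 5.62 ± 0.335 to 4.51 ± 0.289 FPKM (-0.29, limma adjusted p = 0.00946). Pdlim5, a PDZ-LIM protein like Pdlim7, rose from 40.7 ± 0.760 to 46.9 ± 2.54 FPKM (0.20, limma adjusted p = 0.00761). Of 16 tested YAP and TEAD targets, 4 were lower (Axl, F3, Nuak2 and Rbms3) and 2 higher (Ccdc80 and Gadd45a), which is 25% and 12.5%, with a median of -0.01. Axl, a receptor tyrosine kinase, fell from 99.9 ± 3.51 to 86.7 ± 2.17 FPKM (-0.20, limma adjusted p = 0.00379), and F3, tissue factor, by 0.26 on the log2 scale (adjusted p = 0.00434). Gadd45a, a stress-induced growth-arrest gene, rose from 16.6 ± 1.155 to 22.1 ± 1.04 FPKM (0.40, limma adjusted p = 0.000879). Ccdc80, a secreted protein, rose from 82.6 ± 3.23 to 95.1 ± 4.40 FPKM (0.20, limma adjusted p = 0.00899). Over all tested genes the median was -0.02.

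In the list of Hippo kinases, their regulators, the TEAD factors and TEAD cofactors, 6 of 25 tested genes (24%) were lower (Lats1, Mob1a, Stk3, Taok2, Vgll3 and Wwc1) and 3 (12%) higher (Amot, Frmd6 and Limd1), with a median of -0.02. Mob1a, an adaptor of the LATS kinases, fell from 103 ± 8.72 to 83.0 ± 3.22 FPKM (-0.31, limma adjusted p = 0.00607), and Wwc1, an upstream scaffold, from 8.11 ± 0.590 to 6.51 ± 0.254 FPKM (-0.29, adjusted p = 0.00651). Frmd6, also upstream of the kinases, rose from 47.8 ± 0.665 to 53.7 ± 0.424 FPKM (0.17, limma adjusted p = 0.0033), and Limd1, a LIM protein that binds LATS, by 0.13 (adjusted p = 0.0209), a call lost without control replicate 4, siFto replicate 1 or siFto replicate 3 (up to 0.0594). The YAP partner genes Tead1, Tead2, Tead3 and Tead4 did not pass, with log2 fold changes of -0.02, -0.14, 0.14 and -0.20. The count of lower genes in this list fell to 3 with the median-ratio scaling and to 2 without control replicate 1 or siFto replicate 1, and it was 3 without control replicate 2 or without siFto replicate 2, 3 or 4. Leaving out 1 library at a time gave 2 to 7 lower and 1 to 4 higher genes in all, with 1 higher without control replicate 4 or siFto replicate 3.

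Of 29 actin filament turnover genes, 4 (13.8%) were lower (Cfl2, Coro1b, Fscn1 and Pls3) and 2 (6.90%) higher (Twf1 and Twf2), shares near those of all tested genes. The counts changed with the setting, from 0 higher without the limma trend to 4 under quantile normalization. Leaving out 1 library gave 1 to 4 lower genes, with 1 without control replicate 2 or 4 or siFto replicate 2 or 3 and 2 without control replicate 3, and 0 to 4 higher genes, with 4 without control replicate 3 and 0 without any other library except siFto replicate 3. The filament bundler Fscn1 fell from 171 ± 8.49 to 149 ± 7.28 FPKM (-0.20, limma adjusted p = 0.0145). Cfl2, a cofilin that severs filaments, Coro1b, a coronin, and Pls3, a plastin that bundles actin, fell by 0.15, 0.15 and 0.12 on the log2 scale (limma adjusted p = 0.0420, 0.0291 and 0.0370). These calls were lost on leaving out 7, 4 and 7 of the 8 libraries in turn, with adjusted p of up to 0.106, 0.0751 and 0.110. Of 22 tested focal adhesion genes outside the 40, 6 (27.3%) were lower (Bcar1, Ilk, Lims2, Parva, Parvb and Pdlim2) and 2 (9.09%) higher (Crk and Tns1), with a median of -0.05. The count of lower genes ran from 3 without control replicate 2 to 7 without control replicate 3. Parva, Ilk and Lims2 encode members of the complex of integrin-linked kinase, PINCH and parvin that sits at the same adhesions as vinculin and zyxin. Lims2 was low, at 2.86 FPKM in controls and 2.04 FPKM with Fto siRNA, and its groups overlapped. Its far more abundant paralog Lims1 did not pass, at 42.8 and 42.6 FPKM (log2 fold change -0.01, limma adjusted p = 0.886). Pdlim2 fell from 103 ± 7.70 to 82.9 ± 7.23 FPKM (-0.32, limma adjusted p = 0.0102), and Bcar1, an adhesion scaffold, from 40.9 ± 0.342 to 36.6 ± 1.18 FPKM (-0.16, adjusted p = 0.00836). Tns1, a tensin that links integrins to actin, rose from 21.2 ± 1.32 to 27.3 ± 1.52 FPKM (0.35, limma adjusted p = 0.00187), and Crk, an adaptor that binds Bcar1, from 68.3 ± 1.12 to 75.7 ± 2.11 FPKM (0.15, adjusted p = 0.0105).

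**Figure D5:**
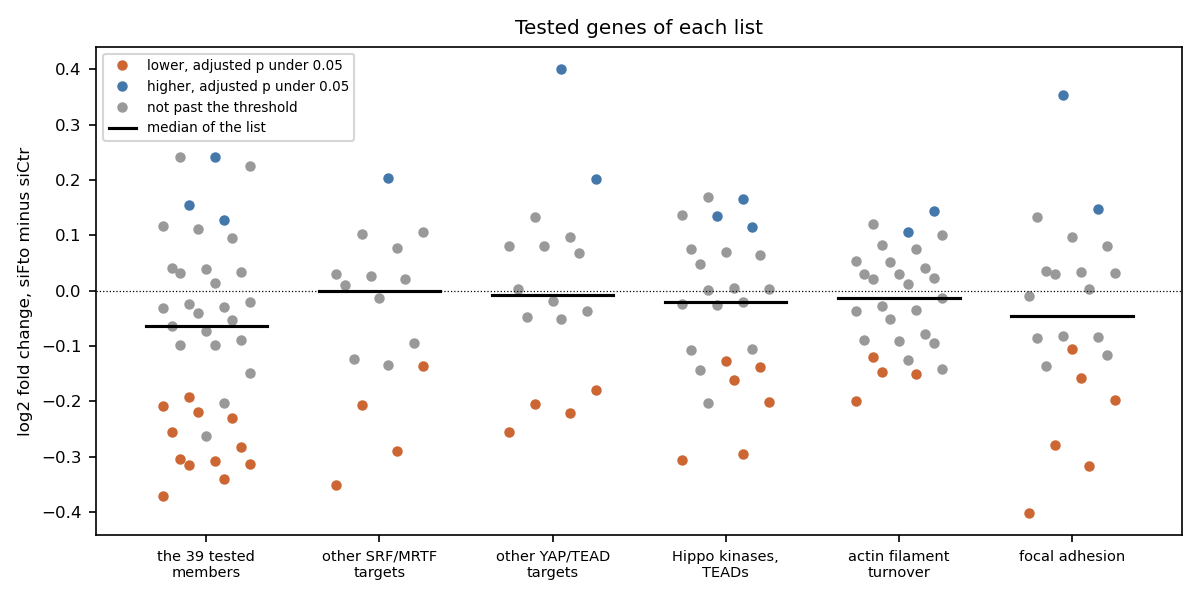
Log2 fold change (siFto minus siCtr) of each tested gene in the 40-gene set and in the 5 further lists, with the median of each as a black line. The medians run from -0.06 for the 40-gene set to -0.00 for the SRF and MRTF targets, and the highest point is Gadd45a at 0.40.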

How the data were processed

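RNA sequencing of 4 siCtr and 4 siFto libraries was compared. The authors deposited FPKM of every gene in 1 table per library, beside the Cufflinks interval and status, per the file headers; TopHat2 2.0.11, Cufflinks 2.2.1 and the build mm9 are named in the submitters' processing notes. For the annotation and the strand setting, details were not given in the sources used here. FPKM depend on a transcript model, so genes with near-identical copies can exchange fragments.

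The FPKM were tested as log2(FPKM + 0.5) for genes averaging 1 FPKM or more in the 8 libraries, by limma 3.58.1 (R 4.3.3) with a variance trend, two-sided, and Benjamini-Hochberg adjustment over all tested genes at 0.05. A fold change on this scale understates that of low genes. Adjusted p and intervals are from limma. For Fto an exact permutation test was added. The test was also run on simulated data. These had independent noise and fewer changed genes than were called here, so no rate of recovery is taken from them for the changes described. Families were compared as shares of summed FPKM, with no test.

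The members and lists were chosen with earlier results of these data known. All 40 members and Fto are named whatever their values, with up to 4 genes of lowest p per further list. Other listed genes that passed are named as the content of their count, and the Tead genes and Lims1 were chosen after their values were seen. The results of a further list are not reported here. Alternatives changed the pseudocount (0.1 or 1), the filter (none, or 5 FPKM), the scaling, the trend, a replicate block, the row status and each library in turn. Mm9 loci are as deposited, counted from 1. Sequences came from RefSeq promoters (GRCm38.p6) and GENCODE M21 transcripts (GRCm38, longest 3′ UTR of at least 50 bases), read with Python 3.11.15, pandas 2.3.3, numpy 2.4.6, scipy 1.17.1 and Biopython 1.88; plots used matplotlib 3.10.9. The compiled tables of the authors were not used.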

Additional observations from a re-analysis of the deposited data

Results flagged for a closer look

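In groups of 4 libraries, 9 of the 122 groups examined held a library far from the other 3, by Dixon's criterion at the 95% level, a share that chance alone brings to about 1 in 20. Control replicate 3 was that library for 5 genes. It held 368.6 FPKM of Cnn3 against 335.4 to 340.8 in the other controls, 37.4 FPKM of Tpm2 against 31.4 to 31.8, and 456.0 FPKM of Myl6 against 398.0 to 399.8. The same library held 136.4 FPKM of Myh9 against 164.1 to 169.2, the only one of the 5 in which it was low, and 287.2 FPKM of F3 against 252.9 to 257.9.

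Replicate 4 of the siFto group held 212.3 FPKM of Myl12b against 242.2 to 245.5 in the others and 25.0 FPKM of Tns1 against 27.8 to 28.2. Control replicate 1 held 83.2 FPKM of Amotl2 against 76.1 to 76.5, and siFto replicate 1 held 38.4 FPKM of Bcar1 against 35.9 to 36.1.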

How the results depend on the processing

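Of the called members, 10 lower (Amotl2, Cnn2, Lmod1, Myl12a, Myl12b, Srf, Tpm1, Vcl, Yap1 and Zyx) and 1 higher (Tagln2) were called in each of the 17 alternatives. With limma without the trend 1 member was higher. Leaving out 1 library at a time gave 1 to 3 higher and 11 to 13 lower members, with 1 higher without siFto replicate 1 or 2, and over all genes 550 to 941 higher and 992 to 1433 lower. Without control replicate 3, 3 members were higher and 13 lower, sharing 2 and 11 with the calls on all libraries. Log2 fold changes near 0 changed sign when 1 library was left out for Tpm4 (range -0.0027 to 0.0426), Myh9 (-0.0923 to 0.0116), Flnc (-0.0352 to 0.0805), Mkl2 (-0.00062 to 0.0752) and Amotl1 (-0.0278 to 0.0622), and for Myh9 with median-ratio scaling (0.00016). The changes of Flnc, Mkl2 and Amotl1 came without control replicate 3, those of Tpm4 without siFto replicate 2 or 4, and those of Myh9 without control replicate 2 or 4 or siFto replicate 4. With the replicate block 2 members were higher and 11 lower, and over all genes 628 and 1133. Deviations of same-numbered libraries correlated at 0.0736, -0.0402, -0.19 and -0.0895, and those of differently numbered ones at -0.178 to 0.176. No shared effect of the replicate number was seen. These values cannot show whether same-numbered libraries were handled together, which the labels do not say. The causes of these changes were not tested. Among tested members the Cufflinks intervals were widest, relative to the value, for Ctgf and Ankrd1, reaching medians of 25.4 and 16.4% above it.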
